A study of Mus musculus with 6 samples.

Results

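The GABA-A receptor subunit genes described here were 7 in number: the alpha subunit genes Gabra2, Gabra3, Gabra4 and Gabra5, the beta subunit genes Gabrb1 and Gabrb2, and the gamma subunit gene Gabrg1. They were listed by gene name, out of the 23282 gene entries counted, and all 7 were among the 13771 genes with enough counts to be tested. The comparison asked how a short exposure to a high-fat diet (HFD) altered transcript levels in the mouse brain. Wild-type (WT) C57BL/6J male mice, 8 to 10 weeks old, received either a normal chow diet (NCD, 3 libraries) or an HFD with 60 kcal% fat (3 libraries) for 10 days. The RNA was that of forebrain hemispheres, which held neither cerebellum nor olfactory bulb; metabolite data of the same study were not analysed here. No source used here says how each library relates to individual animals, so p-values measure only the spread between these libraries. Reads came from 3′ mRNA sequencing (QuantSeq), in which a read marks the 3′ end of a transcript, so levels were compared between diets for each gene and were not ranked between genes.

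GABA is the main inhibitory transmitter of the adult forebrain, and GABA-A receptors are the chloride channels that it opens. Each receptor is a ring of subunits, most often alpha and beta subunits together with a gamma or delta subunit, and the subunit make-up sets where the receptor sits and which drugs act on it. Alpha and beta subunits form the GABA binding site, and the site for benzodiazepines lies between an alpha and a gamma subunit. Receptors can act at synapses, giving brief inhibition, or outside them, giving a steady tonic current.

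Several of these genes are neighbours. On chromosome 5 of GRCm38, in the GENCODE vM21 annotation, Gabrg1 (70751047 to 70842617), Gabra2 (70957597 to 71095849) and Gabra4 (71569749 to 71658308) lay on the minus strand and Gabrb1 (71658113 to 72149037) on the plus strand. Those 4 genes spanned 1398 kb, with 114979 bases between Gabrg1 and Gabra2 and 473899 bases between Gabra2 and Gabra4. The annotated 5′ ends of Gabra4 and Gabrb1 overlapped head to head by 196 bases on opposite strands. Gabra5 (7, 57407672 to 57510059, minus strand), Gabrb2 (11, 42419757 to 42629028, plus strand) and Gabra3 (X, 72432681 to 72656848, minus strand) lay on other chromosomes. No exon of the 7 genes overlapped an exon of another gene on the same strand. On the other strand, exons of Gabra4 and Gabrb1 overlapped, and an exon of Gabra5 overlapped Gm9962. Reads within the shared bases of such pairs cannot be told apart if strand was not used in counting, which the methods do not state. The bases that Gabra4 and Gabrb1 share lie at their 5′ ends, whereas the reads mark 3′ ends.

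Stretches before a start site of Gabra4 and of Gabrb1 are printed because these neighbours on opposite strands had the most opposed levels across the libraries, as given further on, a choice made after the values were seen. RefSeq windows of 300 bases (250 before to 50 after a start site, GRCm38.p6) were searched on both strands for a TATA box (TATAAA), a GC box (GGGCGG), a cyclic AMP response element (TGACGTCA) and the core of the NRF1 motif (GCGCATGC). The Gabra4 stretch, at chr5:71658364-71658558 on the minus strand, is the part clear of annotated exons and runs from 250 to 56 bases before the start site at 71658308, with the GC boxes in capitals as they read on the other strand. The Gabrb1 stretch, at chr5:71699825-71699931 on the plus strand, ends 1 base before the internal RefSeq start site at 71699932, with the palindrome that holds the NRF1 core in capitals.
Gabra4: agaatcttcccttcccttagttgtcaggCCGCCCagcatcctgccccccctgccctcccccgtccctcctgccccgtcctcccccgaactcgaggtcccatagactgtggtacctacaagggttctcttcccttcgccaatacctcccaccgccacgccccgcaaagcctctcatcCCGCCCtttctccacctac
Gabrb1: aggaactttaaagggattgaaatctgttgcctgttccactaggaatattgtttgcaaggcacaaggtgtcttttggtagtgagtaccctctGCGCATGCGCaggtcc
The Gabrb1 stretch lies inside the gene, away from the head-to-head overlap. The window of the other RefSeq start of Gabrb1, near that overlap at chr5:71657671-71657970, had a GC content of 66.0% and none of the 4 motifs, and the Gabra4 window had 58.7%. Across the 11 windows of the 7 genes, a GC box occurred in 3 (Gabra2, Gabra4 and Gabrb2) and in 35.63% of all 32817 windows. A TATA box occurred in 3 windows of 2 genes (both of Gabra3 and 1 of Gabrb2) and in 13.62% of all windows. The Gabra3 windows overlap each other, so they can share a match. The NRF1 core occurred in 1 window (Gabrb1) and in 2.71% of all, and the cyclic AMP response element in 0 and in 1.79% of all. GC content of the windows ran from 38.3% at Gabrg1 to 70.0% at Gabra2, around the median of 52.7% over all windows. These matches describe letters in the windows and were tested against nothing.

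Library totals ran from 6842785 to 9689372 counts, so that 3 counts, the limit that a count of 0 allows for counting error alone, equalled 0.316 to 0.432 CPM, a gene's counts relative to the library total scaled with TMM factors. The 7 genes together took 5760 to 8003 counts in a library. HFD replicate 3 and NCD replicate 3 stood apart from the rest: the former was the highest library in 26.2% and the lowest in 27.2% of the tested genes, the latter in 21.4% and 21.7%, and each of the others in 11.0 to 14.6%. In the study's read quality reports, these libraries also had the highest GC content and the largest share of the most frequent read sequence. The part of such technical differences in any result below was not tested. In HFD replicate 3 the summed level of the 8 hypothalamus markers was 16.9 CPM, against 67.1 to 109 in the other libraries, and that of the 8 midbrain markers 23.8 CPM, against 42.0 to 64.4; the part of dissection in any result below was not tested. Markers of neurons summed to 5900 to 6158 CPM under NCD and 5934 to 6057 under HFD, so neuronal transcripts were present as the label implies. The other lists of marker genes overlapped between diets in their sums, under NCD and HFD in that order: excitatory neurons 2427 to 2806 and 2133 to 2769, inhibitory neurons 535 to 580 and 559 to 588, astrocytes 4778 to 5066 and 4548 to 4981, oligodendrocytes 7501 to 8648 and 8447 to 9114, hippocampus 148 to 161 and 122 to 186, striatum 908 to 1009 and 929 to 976, and thalamus 577 to 688 and 518 to 654. By edgeR, 3.68% of all tested genes had an unadjusted p under 0.05. Of the markers, 3 of 7 tested midbrain markers (Th, Slc6a4 and Tph2) and 1 of 9 inhibitory neuron markers (Dlx1) did, all lower under HFD. The other marker lists had 0. Slc6a4 had 1 to 54 counts in a library and Tph2 7 to 48, and NCD replicate 1 (11 counts for each) lay within the HFD range in CPM. Of the 9 inhibitory neuron markers, 6 had a higher estimate under HFD. Fewer cells of a type and less RNA per cell cannot be told apart in such tissue.

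No subunit gene was called different between the diets. With the quasi-likelihood test of edgeR, Benjamini-Hochberg adjusted over all tested genes, 0 of the 7 had an adjusted p under 0.05, the adjusted p ran from 0.979 to 0.999, and the share of all tested genes called was 0%. At an unadjusted p under 0.05, 0 of the 7 passed with edgeR, and 0 with DESeq2 or with limma after quantile normalization. Of all 13771 tested genes, 507 (3.68%) passed with edgeR, 375 with DESeq2 and 587 with limma after quantile normalization. In 0 of the 7 did the 3 HFD libraries lie wholly above or below the 3 NCD libraries, and 8.81% of all tested genes separated in this way. The log2 fold change (HFD against NCD, positive when higher under HFD) was above 0 in 3 genes and below 0 in 4, with a median of -0.00044, and the median over all tested genes was -0.00245. A missed threshold does not show equal levels, so the 95% interval of each difference is given with its values below.

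**Figure D1:**
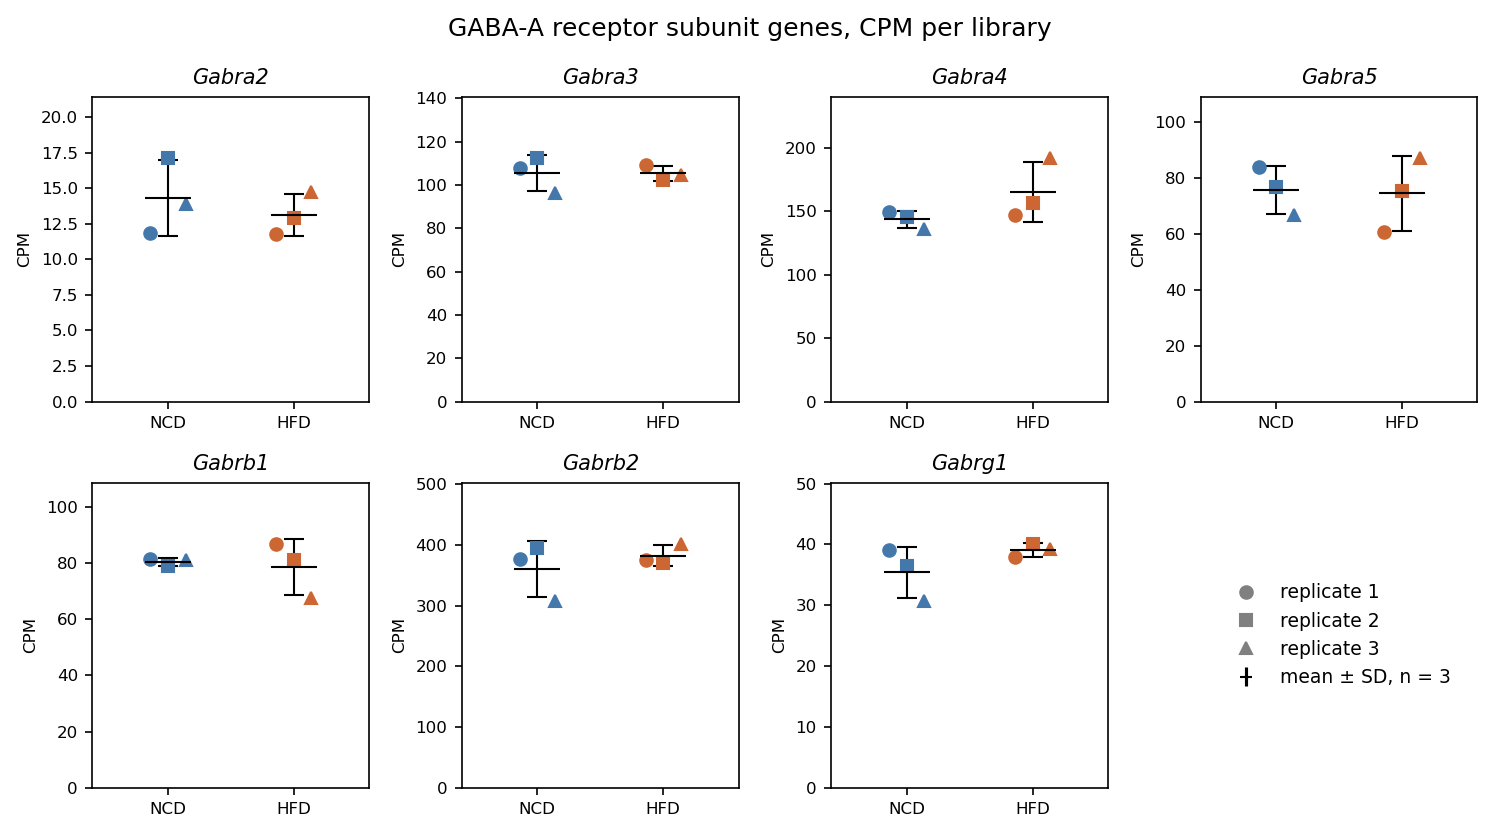
CPM of each subunit gene (vertical axes, from 0 and on a scale of their own for each gene) in the 3 NCD and 3 HFD libraries, with symbols for the replicate number and a bar for the mean ± SD (n = 3). In every panel the points of the diets overlap, and the HFD replicate 3 point stands highest in Gabra4, Gabra5 and Gabrb2 and lowest in Gabrb1.

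Among the alpha subunits, Gabra4 had the largest difference. The alpha4 subunit is found mainly in receptors outside synapses, often with delta, that carry tonic current in the thalamus, striatum and dentate gyrus. Its level was 149, 146 and 136 CPM in NCD replicates 1 to 3 and 147, 156 and 192 CPM in HFD replicates 1 to 3. The 192 CPM of HFD replicate 3 was well above the remaining libraries, and HFD replicate 1 lay within the NCD range. The means were 143 ± 6.99 CPM under NCD and 165 ± 24.0 under HFD (SD, n = 3), a log2 fold change of 0.20 (SE 0.12, 95% interval -0.04 to 0.45, or 0.970- to 1.37-fold). This value rested on HFD replicate 3, without which it was 0.08 (SE 0.09). Without HFD replicate 1 it was 0.28, which passed an unadjusted threshold of 0.05 in edgeR's quasi-likelihood test but had a Benjamini-Hochberg adjusted p of 0.839.

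Gabra5 encodes the alpha5 subunit, which is concentrated in the hippocampus and contributes to tonic inhibition there. It varied most within the HFD group, at 60.9, 75.4 and 87.4 CPM, against 83.9, 77.0 and 66.8 CPM under NCD. Both the lowest and the highest of the 6 libraries were HFD libraries, and the NCD libraries fell between them. The means were 75.9 ± 8.62 and 74.6 ± 13.3 CPM (SD, n = 3), and the log2 fold change was -0.02 (SE 0.13, 95% interval -0.31 to 0.26). Its sign turned when a library was left out, to 0.10 without HFD replicate 1 and 0.05 without NCD replicate 1. The summed level of the 8 hippocampus markers was 186 CPM in HFD replicate 1, where Gabra5 was lowest, and 122 CPM in HFD replicate 3, where Gabra5 was highest. Single markers went both ways between these libraries. Zbtb20 (68.8 and 37.5 CPM), Wfs1, C1ql2, Dsp and Lct were lower in HFD replicate 3 than in HFD replicate 1. Spink8 (7.05 and 9.76 CPM in HFD replicates 1 and 3) and Fibcd1 (10.9 and 12.9 CPM) were higher, and Prox1 was at 5.61 and 5.64 CPM. The part of hippocampal content in the Gabra5 values was not tested.

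Gabra3 encodes alpha3, a subunit of synaptic receptors that is prominent in monoaminergic nuclei and in parts of the cortex. It was at 108, 113 and 96.1 CPM under NCD and 109, 102 and 105 CPM under HFD. All 3 HFD libraries lay inside the NCD range. The means were 105 ± 8.48 and 105 ± 3.50 CPM (SD, n = 3), a log2 fold change of -0.00044 (SE 0.11, 95% interval -0.22 to 0.22, or 0.856- to 1.17-fold).

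Gabra2 encodes alpha2, a synaptic subunit that is enriched on the axon initial segment of principal neurons and is associated with the anxiolytic action of benzodiazepines. It had few reads, with counts of 96, 159 and 132 under NCD and of 82, 118 and 107 under HFD. In CPM these were 11.8, 17.2 and 13.9 under NCD and 11.8, 12.9 and 14.7 under HFD, with NCD replicate 2 above the rest. The means were 14.3 ± 2.67 and 13.1 ± 1.47 CPM (SD, n = 3) and the log2 fold change was -0.13 (SE 0.18). With a mean count of 115.7, counting error alone gave a coefficient of variation of 9.30%, and the 95% interval of -0.52 to 0.26 (0.699- to 1.20-fold) was the widest of the 7. Without NCD replicate 2 the log2 fold change was 0.03.

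Beta subunits are needed for the channel to assemble and reach the membrane. Gabrb2 encodes beta2, the beta subunit that partners many synaptic receptors of the adult brain. Its levels were 377, 395 and 308 CPM under NCD and 376, 370 and 402 CPM under HFD. NCD replicate 3 was the lowest library and the other 5 lay close together. The means were 360 ± 45.8 and 383 ± 17.2 CPM (SD, n = 3), a log2 fold change of 0.09 (SE 0.11, 95% interval -0.14 to 0.32). Without NCD replicate 3 it was -0.01.

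Gabrb1 encodes beta1. It was even across the NCD libraries, at 81.5, 78.9 and 81.1 CPM, and spread wider under HFD, at 86.8, 81.1 and 67.6 CPM. The HFD libraries held both the highest and the lowest value, the lowest in HFD replicate 3. The means were 80.5 ± 1.42 and 78.5 ± 9.84 CPM (SD, n = 3), a log2 fold change of -0.04 (SE 0.11, 95% interval -0.28 to 0.21), which was 0.06 without HFD replicate 3.

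Gabrg1 encodes gamma1, a gamma subunit of limited distribution, known from the amygdala, hypothalamus and glia. It was at 39.0, 36.5 and 30.8 CPM under NCD and 37.9, 40.1 and 39.2 CPM under HFD. Here the HFD libraries were close together, the first of them lay below NCD replicate 1, and NCD replicate 3 was the lowest. The means were 35.4 ± 4.22 and 39.0 ± 1.13 CPM (SD, n = 3), a log2 fold change of 0.14 (SE 0.13, 95% interval -0.13 to 0.42). With 1 library left out it ran from 0.05 to 0.22. In HFD replicate 3, where the hypothalamus markers had their lowest sum, Gabrg1 was 0.08 above its mean over the libraries on the log2 scale. The part of hypothalamic content in the Gabrg1 values was not tested.

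**Figure D2:**
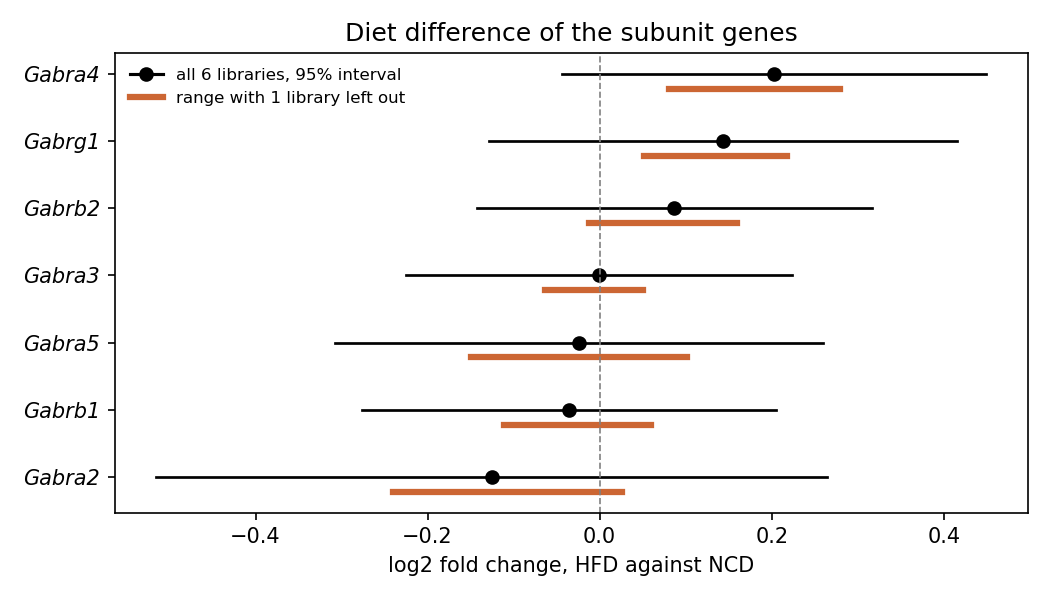
Log2 fold change of HFD against NCD (horizontal axis) for each subunit gene, with the 95% interval from edgeR (black) and the range of the estimates when each library was left out in turn (orange). All 7 intervals include 0, and only the orange ranges of Gabra4 and Gabrg1, 0.08 to 0.28 and 0.05 to 0.22, stay on the upper side while those of the other 5 genes cross 0.

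The size of these differences can be read against the spread among libraries. The coefficient of variation within a diet ran from 1.77% (Gabrb1, NCD) to 18.7% (Gabra2, NCD). It was larger under HFD than under NCD for Gabra4 (14.5% and 4.87%), Gabra5 (17.8% and 11.4%) and Gabrb1 (12.5% and 1.77%), and smaller for the other 4 genes. Gabra4 stood at the 86.0th percentile of the log2 fold changes of all tested genes, Gabrg1 at the 79.0th and Gabra2 at the 25.1st, with the other genes in between. The ratio of the highest to the lowest library ran from 1.17 for Gabra3 to 1.45 for Gabra2.

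**Figure D3:**
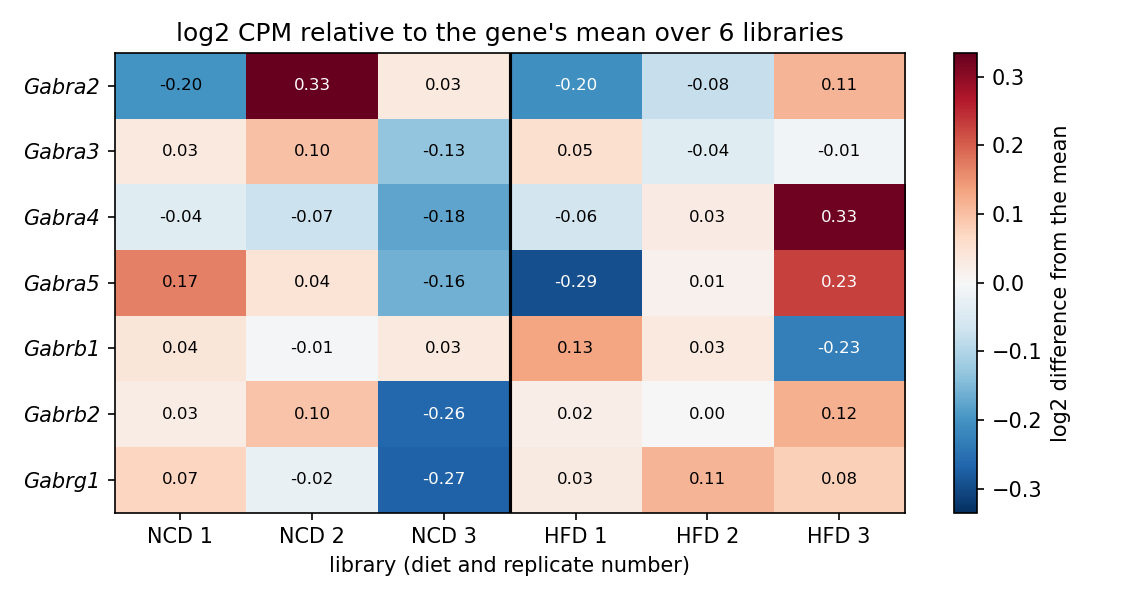
Each cell gives the log2 CPM of a subunit gene (rows) in a library (columns, NCD left and HFD right of the line) minus the mean of that gene over the 6 libraries, in red when higher and blue when lower. HFD replicate 3 runs from 0.33 for Gabra4 to -0.23 for Gabrb1, and NCD replicate 3 is at -0.26 for Gabrb2 and -0.27 for Gabrg1.

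The libraries that stood apart over all genes also held many of the extremes here. HFD replicate 3 was the highest library for 3 of the 7 genes (Gabra4, Gabra5 and Gabrb2) and the lowest for 1 (Gabrb1). NCD replicate 3 was the lowest for 4 (Gabra3, Gabra4, Gabrb2 and Gabrg1). The 7 genes summed to 849, 863 and 733 CPM under NCD and 829, 838 and 908 CPM under HFD, and the HFD values fell around the upper NCD values while NCD replicate 3 was below all. By class, the 4 alpha genes summed to 339 ± 23.1 CPM under NCD and 358 ± 36.5 under HFD, and both beta genes to 441 ± 45.0 and 461 ± 9.55 (SD, n = 3), with overlapping libraries in each class.

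The make-up of the subunit reads was compared as shares. Of the reads of all 7 genes, Gabrb2 gave 44.1% under NCD and 44.6% under HFD, Gabra4 gave 17.6% ± 0.817 and 19.2% ± 1.79 (SD, n = 3), and Gabra2 gave 1.76% and 1.53%. These are shares of reads, which depend on how well each 3′ end is captured, and were compared between diets alone. Within the alpha reads, Gabra4 made up 41.3 to 43.4% in the NCD libraries and 44.7 to 48.2% in the HFD libraries, which did not overlap. The shares of Gabra2, Gabra3 and Gabra5 within the alpha reads overlapped between the diets. Among the 21 ratios between pairs of the genes, 1 did not overlap between the diets, set beside 8.81% of single genes over the whole table. It was Gabra4 to Gabra5, with log2 ratios of 0.83, 0.92 and 1.02 under NCD and 1.27, 1.05 and 1.14 under HFD. The means were 0.92 ± 0.10 and 1.15 ± 0.11 (SD, n = 3), 0.23 apart. This ratio and the Gabra4 share draw on the same reads of Gabra4 and Gabra5. Both were singled out after their values were seen and were not tested.

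Pairs of subunit genes moved together or apart across the 6 libraries. Of the 21 Pearson correlations of log2 levels, 15 were above 0 and the median was 0.16, from 0.84 for Gabrb2 with Gabrg1 to -0.85 for Gabra4 with Gabrb1. The points share both diets and the same 6 libraries, of which 2 stood apart, so these values only describe the libraries. The head-to-head neighbours Gabra4 and Gabrb1 gave CPM ratios of 1.83, 1.85 and 1.67 under NCD and 1.69, 1.93 and 2.84 under HFD. HFD replicate 3 alone was far from the rest in that ratio. With the mean standardised profile of the 7 genes, Gabrb2 (0.98), Gabrg1 (0.82) and Gabra3 (0.78) had the highest correlations and Gabrb1 (-0.44) the lowest. Each of the 7 genes is part of that profile, which raises its own correlation with it. Outside the group, the genes most like that profile were Mdh1, encoding cytosolic malate dehydrogenase (r = 0.995), Apopt1 (0.995) and Mtag2 (0.994), over 6 libraries. Such likeness was common with so few points, since 307 of 13764 other genes reached an r of 0.9 or more.

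The rest of the GABA machinery gives the setting of these values. In 6 further lists, 68 genes were listed and 55 tested; 0 had an adjusted p under 0.05 in the same edgeR test (Benjamini-Hochberg) and 1 had an unadjusted p under 0.05, beside the 3.68% of all tested genes. Their log2 fold changes ran from -0.47 to 0.21 with a median of -0.07. Of the 12 other GABA-A and GABA-rho subunit genes, 5 were tested and 0 passed, with a median of -0.03, from -0.24 for Gabrq (theta subunit) to 0.07. That median had no stable sign, since it was 0.08 without NCD replicate 2, 0.03 without HFD replicate 1 and 0.07 with no filter on low counts.

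The gene that passed was Iqsec3, which encodes an exchange factor at inhibitory synapses that binds the scaffold gephyrin. It was at 50.1, 64.4 and 61.2 CPM under NCD and 56.7, 46.5 and 33.3 CPM under HFD, lowest in HFD replicate 3, and HFD replicate 1 lay within the NCD range. The log2 fold change was -0.37 (SE 0.16), and the Benjamini-Hochberg adjusted p of the edgeR test was 0.979. Without HFD replicate 3 the log2 fold change was -0.19. The unadjusted threshold was no longer passed then, nor without NCD replicate 2, NCD replicate 3 or HFD replicate 2, nor with limma after quantile normalization. Of the 23 tested genes for anchoring and auxiliary proteins, which hold receptors at synapses and carry them to the membrane, 9 had a value above 0 and 14 below, with a median of -0.07. HFD replicate 3 was the lowest library for 11 of them, and the median was -0.02 without it.

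Genes for the synthesis, transport and breakdown of GABA all had values below 0, 9 of 9 tested, beside 6969 of all 13771 tested genes. Of the 9, 0 passed an unadjusted p of 0.05 in the edgeR test, and the median was -0.18. The values ran from -0.47 for Slc6a13, encoding the GABA transporter GAT2, to -0.05. HFD replicate 3 was the lowest library for 8 of the 9, and the median was -0.07 without it. Slc6a13 had 50, 57 and 68 counts under NCD and 39, 45 and 26 under HFD, so its HFD libraries lay below all NCD libraries in CPM. Of the 55 tested genes of the 6 lists, 2 did not overlap between the diets, beside 8.81% of all tested genes, and the other, Rdx in the anchoring list, was higher under HFD (158, 169 and 132 CPM under NCD and 170, 176 and 177 CPM under HFD). Chloride transporters and their kinases, which set whether GABA-A currents inhibit, had a median of -0.02 over 9 tested genes, with 0 passing, from -0.14 for Slc12a5, the neuronal chloride exporter KCC2, to 0.17 for Oxsr1, a kinase that acts on such transporters. The median of this list was 0.03 without HFD replicate 3 and -0.06 without NCD replicate 1. Slc12a5 was at 363 to 392 CPM under NCD and at 395, 369 and 256 CPM under HFD, low in HFD replicate 3 only. The metabotropic GABA-B receptor genes had a median of -0.08 over 5 tested, with 0 passing, from -0.14 for Kctd12b to 0.06 for Kctd8, both auxiliary subunits. It was 0.03 without NCD replicate 3 and -0.01 without HFD replicate 3. Glycine receptor subunits, which form the related glycine-gated chloride channel, had a median of -0.07 over 4 tested, with 0 passing, from -0.19 for Glra2 to 0.09 for Glrb, the beta subunit. Their median was 0.04 without NCD replicate 3, -0.02 without HFD replicate 3, -0.04 without HFD replicate 2 and -0.17 with no filter on low counts.

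**Figure D4:**
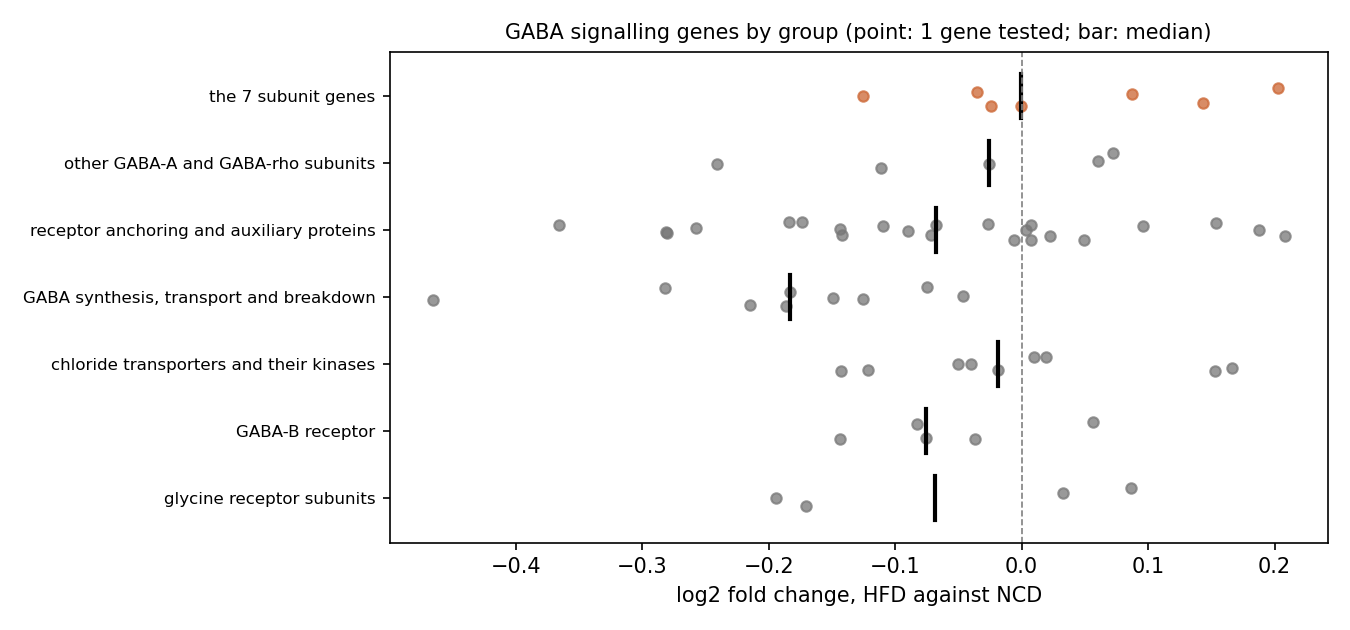
Log2 fold change of HFD against NCD (horizontal axis) for each tested gene (points, spread vertically at random for view) of the 7 subunit genes (orange) and 6 other lists (grey), with a bar at each median. The medians run from -0.18 for GABA synthesis, transport and breakdown to -0.00044 for the 7 subunit genes, and the lists overlap.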

How the data were processed

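RNA of 6 forebrain libraries (3 NCD, 3 HFD) was measured by QuantSeq 3′ mRNA sequencing. The deposited values were whole read counts per gene: the authors trimmed adaptors, aligned reads with Bowtie2 to mm10 and counted unique and multiple alignments with bedtools. No versions are given in the sources used here. Multiple alignments can give reads to more than 1 similar gene. Library totals were 6842785 to 9689372 counts, and 79 of 23282 entries shared a symbol.

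Groups came from the labels. Counts were scaled with TMM, filtered (filterByExpr, minimum count 10, minimum total 15) and fitted with edgeR 4.0.16 in R 4.3.3 (quasi-likelihood test, diet as the only term, two-sided, Benjamini-Hochberg over 13771 genes). CPM values were TMM-scaled. Standard errors and 95% intervals came from that test. Correlations used log2(CPM + 1). The fit was tested on simulated data. Those data had the same spread in every library and larger changes than those of the subunit genes, so that test does not cover the outlying libraries here. Alternatives were DESeq2 1.42.0, quantile normalization with limma 3.58.1 (the normalization that the methods name), other scalings and filters, robust estimation, each library left out, and the replicate number as a block. Figures were drawn with matplotlib 3.10.9.

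The named genes were the 7 subunit genes, in each other GABA list the genes with an unadjusted p under 0.05 or else those with the highest and lowest value, and the 3 genes most like the subunit profile. Th, Slc6a4, Tph2, Dlx1, Gm9962, Rdx and the hippocampus markers fall outside this rule and were named after their values or positions were seen. The highest of the other subunits and that of the GABA synthesis list are not reported here by name. The subunit genes and the lists were chosen with earlier results of these data known.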

Additional observations from a re-analysis of the deposited data

How the results depend on the processing

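The 7 subunit genes had 0 adjusted p under 0.05 under every alternative run, with adjusted p from 0.839 to 1. The number of them with an unadjusted p under 0.05 was 0 except with 1 library left out, where it ran from 0 to 1 (Gabra4, without HFD replicate 1). Leaving out a library gave 0 to 2 of them that did not overlap between diets, in each case of 2 Gabra4 and Gabrg1 (without NCD replicate 1, where 18.2% of all tested genes did so, and without HFD replicate 1, where 20.4% did). Gabra3, at -0.00044, changed sign to 0.000999 with DESeq2, 0.00147 with upper-quartile scaling, 0.000373 with no filter, 0.000408 with genes over 2% of counts left out and 0.00175 with the replicate block. With 1 library left out, the log2 fold change ran from -0.24 to 0.026 for Gabra2, -0.063 to 0.050 for Gabra3, -0.15 to 0.10 for Gabra5, -0.11 to 0.060 for Gabrb1 and -0.013 to 0.16 for Gabrb2. The median of the 7 was 0.10 without HFD replicate 1. Over all genes, the count with an adjusted p under 0.05 was 2 with DESeq2, 23 with no filter and 0 to 3 with a library left out (3 without NCD replicate 3). The count with an unadjusted p under 0.05 was 902 with no filter and 411 to 773 with a library left out (773 of 14163 without HFD replicate 1). The cause of these changes was not tested. Deviations from the diet means correlated weakly between same-numbered libraries of the diets (r of -0.03, 0.05 and -0.06). Replicates 2 correlated best with each other, the other libraries with another number. Deviations taken within 3 libraries hold such values near 0 on average, so they cannot decide whether the numbers pair the libraries. GC content in the study's read quality reports had the same order by number in both diets. The replicate block gave 371 genes at an unadjusted p under 0.05, in place of 507, and 0 of the subunit genes. Iqsec3 had an unadjusted p under 0.05 in 9 of 15 alternatives, and the replicate block was among the 6 where it did not. With 3 libraries a diet, the intervals of the subunit genes leave changes such as 1.37-fold for Gabra4 and 0.699-fold for Gabra2 within range.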
